A study of Mus musculus with 4 samples.

Results

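PU.1 binding was compared between activated B cells of a pair of mutant mice that interrupt the same regulatory link at different ends. One lacks the microRNA miR-155 altogether (genotype miR-155[-/-]), and the other, a PU.1 knock-in (genotype PU.1[155-/155-]), keeps the microRNA but carries an altered miR-155 target site in the gene that encodes PU.1. The members are all PU.1 peaks that the authors called on chromosomes 1 to 19 in these genotypes: 2063 knock-in and 4094 knockout peaks, together 6157 of the 7379 peaks in the 3 lists of the series. A further 31 knock-in and 59 knockout peaks on the sex chromosomes and the wild-type list were left out.

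The cells were splenic B cells purified by negative selection and stimulated with 5 ug/ml lipopolysaccharide plus 10 ng/ml interleukin-4 over 4 days (96 h). These stimuli drive resting B cells to divide, switch antibody class and, in part, become antibody-secreting cells. Chromatin was fixed with 2% formaldehyde, sonicated and precipitated with an antibody to PU.1, and the recovered DNA was sequenced (ChIP-seq). Each genotype was represented by 1 library, whose title calls it a mix. The labels state neither how many animals went into it nor their age, and name the knock-in allele without giving the bases changed in it. The lists hold no read counts, so the depth of each library is unknown, and no difference between the genotypes has a replicate check. The levels of PU.1 protein, of Spi1 transcript and of miR-155, which would check the genotypes, and the B cell markers, which would check the cell type, were not analysed here.

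PU.1, encoded by Spi1, is an ETS-family transcription factor that binds purine-rich sites in enhancers and promoters. It is abundant in macrophages and lower in B cells, where it works with partners such as IRF4 and IRF8, and it declines as B cells become plasma cells. miR-155 is cut from the transcript of a host gene that is induced when B cells are activated, and it represses many messenger RNAs, among them that of Spi1. The whole knockout therefore frees every target of the microRNA, whereas the knock-in is designed to free PU.1 alone. Comparing the lists asks how far the sites bound by PU.1 are the same when only this target escapes and when the microRNA is gone.

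The microRNA itself is shown because its seed, bases 2 to 8, is the part that pairs with a target site such as the one changed in the knock-in. Seeds are in capitals in the mature sequences, and both mature strands are in capitals in the hairpin from which they are cut. The 5p strand is the main active form. The sequences are from RefSeq (build GRCm38.p6), where the hairpin lies on the plus strand at chr16:84714140-84714204.
mmu-miR-155-5p: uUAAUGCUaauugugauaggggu
mmu-miR-155-3p: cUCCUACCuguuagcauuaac
miR-155 hairpin: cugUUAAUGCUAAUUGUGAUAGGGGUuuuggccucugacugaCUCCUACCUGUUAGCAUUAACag
The hairpin has 65 bases, and the mature strands have 23 and 21. By genotype, the knockout lacks this RNA and the knock-in keeps the gene for it.

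Most sites called in the knock-in were also called in the knockout, while fewer of the sites in the longer knockout list were called in the knock-in. Counting any overlap of at least 1 bp, 1531 of the 2063 knock-in peaks had a counterpart in the knockout, 74.2% of the list (exact 95% binomial interval 72.3 to 76.1). From the other side, 1530 of the 4094 knockout peaks had a counterpart in the knock-in, 37.4% (35.9 to 38.9). These intervals cover counting error over peaks only, not variation between mice or libraries. The knockout list was 1.98 times as long as the knock-in list, so with peaks paired singly the shares could not be equal. With the knockout list held to its 2063 highest-scoring peaks, the shares were 58.7% of knock-in and 58.6% of knockout peaks. Joining overlapping peaks gave 4626 regions: 1530 called in both genotypes (33.1%), 532 called in the knock-in only (11.5%) and 2564 called in the knockout only (55.4%). Knock-in intervals summed to 667 kb and knockout intervals to 1255 kb.

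Where both genotypes had a peak, the called intervals nearly coincided. All 1530 shared regions but 1 paired a single knock-in peak with a single knockout peak. The centres of overlapping peaks lay a median of 37.5 bp apart (quartiles 18 and 65.2), 92.8% were within 100 bp and only 2 pairs were more than 200 bp apart. In 791 pairs (51.7%) the narrower interval lay wholly inside the wider one. The knockout interval was the wider one in 808 pairs and the knock-in interval in 716. The limit of 1 bp decided no pair: the smallest overlap of any pair was 109 bp. Just outside it, 3 knock-in peaks and 19 knockout peaks without an overlap lay within 500 bp of a peak of the other genotype, the closest at 98 bp and 62 bp. The exception to single pairing was a region at chr13:103479571-103480221 (mm9). There the knock-in had a peak of 332 bp ranked 1924 and another of 207 bp ranked 1033, and the knockout had 1 peak of 619 bp ranked 903.

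Nearly all of the strongest sites of each genotype were called in the other. The authors gave each peak a score, used here only to order the peaks within a list. The 206 knock-in peaks of the highest-scoring 10% were all called in the knockout (exact 95% interval 98.2 to 100). Of the 410 knockout peaks in its highest-scoring 10%, 382 were called in the knock-in (93.2%, 90.3 to 95.4). The share went down to 33.7% (27.3 to 40.5) in the lowest-scoring 10% of the knock-in list and to 10.2% (7.46 to 13.6) in the same class of the knockout list. The descent differed in shape between the lists. In class 6 of 10, just above the middle of a list, knock-in peaks were still found in 84.6% of cases (79.0 to 89.2) and knockout peaks in 31.5% (27.1 to 36.3). A peak in the middle of the longer list stands further from the strongest sites, in number of peaks, than one in the middle of the shorter list, so the curves are not set against each other as a difference between genotypes.

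**Figure D1:**
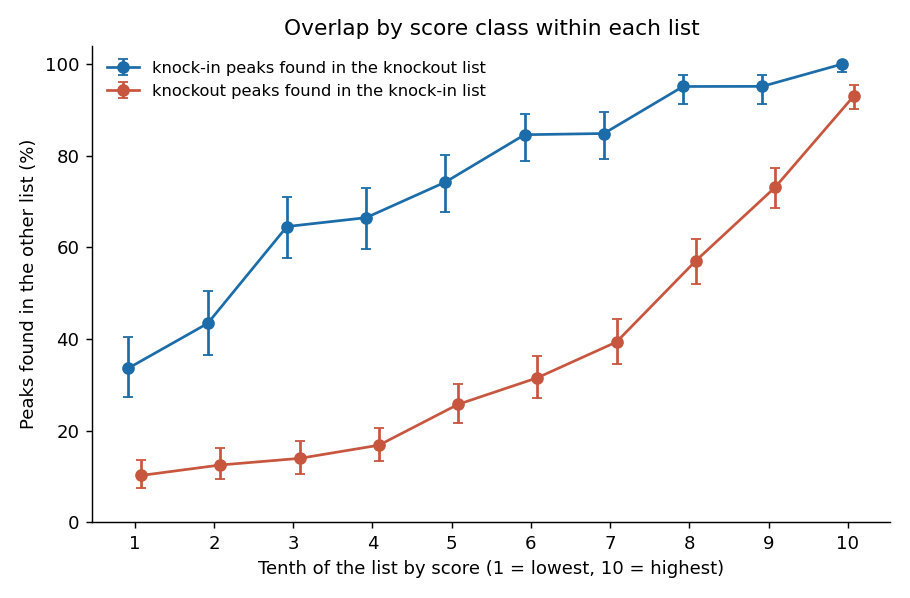
The vertical axis is the percentage of peaks that overlapped a peak of the other genotype, and the horizontal axis is the score class, 10 equal parts of each list from 1 (lowest) to 10 (highest). Bars are exact 95% binomial intervals over peaks. The knock-in points go from 33.7% to 100% and the knockout points from 10.2% to 93.2%.

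The 10 leading shared regions are given with their rank in each list. The highest peak of both lists was the same, at chr2:127834131-127835338 (mm9). Its knock-in interval spanned 1081 bp and its knockout interval 1208 bp, and no other peak on these chromosomes exceeded 1000 bp in either list. The region at chr9:96299796-96300346 was at rank 2 in both lists. A region at chr18:66597362-66597874 had rank 4 among knock-in and rank 3 among knockout peaks. The region at chr8:47680881-47681436 ranked 5 and 6. Next by summed percentile was chr5:98447146-98447670, ranked 10 among knock-in and 5 among knockout peaks. It was followed by chr9:48366781-48367193, ranked 7 and 11 in the same order. These 6 held nearly the same place in both genotypes. The region at chr4:141033565-141034010 was less alike, at rank 3 of the knock-in and 20 of the knockout peaks. Of the other leading regions, chr2:35351356-35351911 ranked 8 and 12, and chr14:70802154-70802745 ranked 13 and 8. The last of the 10, chr7:50647747-50648096, was at 16 among knock-in and 4 among knockout peaks. The 10 were chosen and ordered by the sum of their score percentiles in both lists, so their height in both lists is a description. The gene that each region belongs to is not stated, because no annotation of the files' build, mm9, was at hand.

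The order of the shared sites was moderately alike in both lists. Over the 1531 overlapping pairs, Spearman's rho between the scores was 0.54 (given without a p, since pairs share their libraries and peak caller). Among the 949 pairs whose knock-in peak was in the higher-scoring 50% of its list rho was 0.53, and among the other 582 it was 0.07. This split was made on the knock-in score itself. The lower-scoring 50% spans a narrow range, from 50.1 to the list median of 72.9, whereas the list reaches 1069. It also holds the most common tied score, 59.49 (72 peaks). The rho values of the parts are therefore not set against each other. Ordered among shared pairs alone, 32.8% of pairs stood within 10 percentile points of the same place and 64.3% within 25. Of the 206 highest knock-in peaks, 156 (75.7%) fell in the highest-scoring 10% of the knockout list and 4 in its lower-scoring 50%. Of the 382 shared peaks of the knockout's highest-scoring 10%, 156 were in the same class of the knock-in (40.8%), which holds only 206 peaks, and 42 were in its lower-scoring 50%. Ties were common: 56.0% of knock-in and 57.5% of knockout peaks shared their score with another peak of their list.

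**Figure D2:**
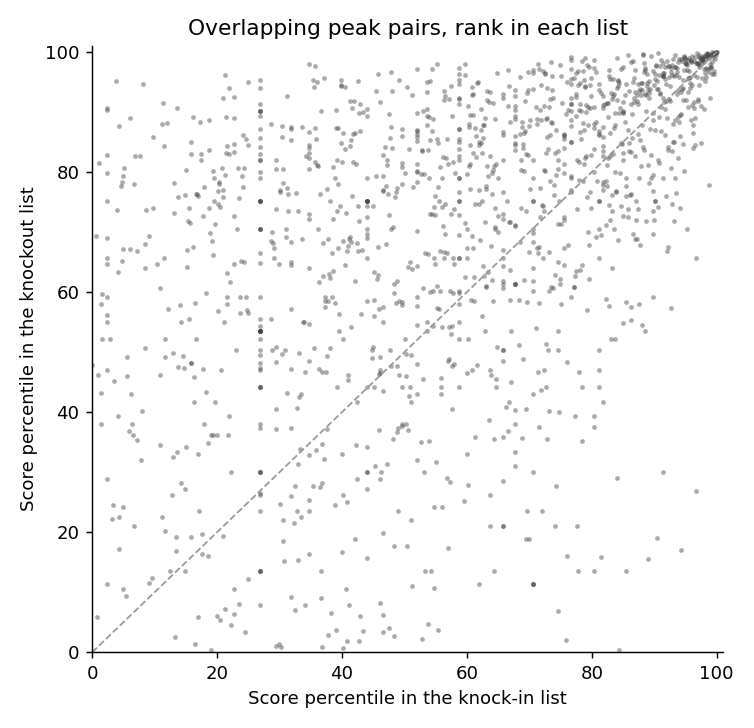
Each point is 1 of 1531 overlapping pairs, placed by the score percentile of its peak in the knock-in list (horizontal) and in the knockout list (vertical); the dashed line marks equal percentiles. Points converge in the upper right corner and scatter widely at low knock-in percentiles, and vertical rows of points are tied scores.

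Some shared sites stood high in the list of one genotype and low in that of the other. The widest gap in favour of the knockout was at chr5:67693189-67693559, which ranked 202 of 4094 knockout peaks and 1983 of 2063 knock-in peaks. Regions at chr15:102055717-102056241 and at chr6:48782451-48782920 ranked 385 and 395 in the knockout and tied at 2006 in the other list. The next were at chr5:136044661-136044957, ranked 216 in the knockout list and 1895 in the other, and at chr13:115789870-115790224, ranked 507 and 1973. All 5 were near the calling limit of the knock-in, with scores of 50.8 to 52.4 in a list that began at 50.1.

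In the opposite direction, the leading case was at chr11:106167092-106167511, at rank 322 of the knock-in peaks and 4071 of the knockout peaks, near the end of the list. The region at chr2:117129169-117129481 ranked 119 among knock-in and 3398 among knockout peaks, the lowest knockout percentile (17.0) of any of the 206 highest knock-in peaks. The others were at chr2:28395477-28395820, ranked 497 and 4011, and at chr12:114406447-114406716, ranked 228 and 3460, and at chr12:55921739-55922023, ranked 296 and 3509. Pairs more than 50 percentile points apart numbered 171, of which 146 stood higher in the knockout list and 25 in the knock-in list. The longer list holds more low-scoring unshared peaks, which by itself raises the percentile of a shared site, so this split is not read as a change. Ordered among the 1531 shared pairs alone, the 5 regions that stood higher in the knock-in were at places 119 to 486 by knock-in score and 1453 to 1530 by knockout score. The 5 that stood higher in the knockout were at places 1471 to 1508 by knock-in score and 199 to 454 by knockout score.

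Taking equal numbers of leading peaks removed the difference in list length. Of the 100 highest peaks of each genotype, 53 were the same sites (53.0%, exact 95% interval 42.8 to 63.1). The agreement was 145 of 250 (58.0%, 51.6 to 64.2), 296 of 500 (59.2%, 54.7 to 63.5), 604 of 1000 (60.4%, 57.3 to 63.4) and 910 of 1500 (60.7%, 58.1 to 63.1). With 2063 peaks each it was 1210 knock-in peaks (58.7%, 56.5 to 60.8). Each set contains the smaller ones, so the intervals are not independent, and a trend from 100 to 2063 peaks was not tested. At 250 peaks each, sites that missed the leading set of the other genotype were mostly present further down its list. Of the 250 highest knock-in peaks, 249 were called somewhere in the knockout, and of the 250 highest knockout peaks 245 were called in the knock-in. Of the 500 highest, 14 of 512 knock-in peaks (ties included) and 51 of 500 knockout peaks were not called anywhere in the other list. Of the 1000 highest these were 74 of 1003 and 217 of 1033. With 2063 peaks each, they were 532 knock-in and 854 knockout peaks. That number is the whole knock-in list, so a knockout peak that missed it could not lie further down.

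**Figure D3:**
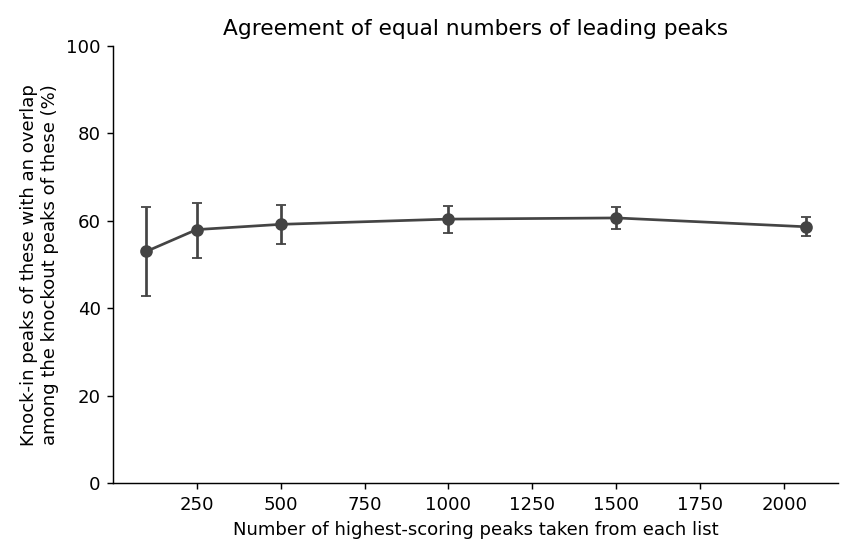
The vertical axis is the percentage of the leading knock-in peaks that overlap one of an equal number of leading knockout peaks, and the horizontal axis is that number; bars are exact 95% binomial intervals. The values lie between 53.0% and 60.7%.

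Searching the knockout list from the top showed where the knock-in sites lay in it. The 1000 highest knockout peaks contained 795 knock-in peaks (38.5% of the knock-in list, 36.4 to 40.7), and the 2000 highest contained 1188 (57.6%, 55.4 to 59.7). The 3000 highest contained 1402 (68.0%, 65.9 to 69.97), and the whole list of 4094 contained 1531. Most of the shared sites were thus in the stronger part of the knockout list: shared knockout peaks had a median percentile of 76.7 (quartiles 55.1 and 89.96) and unshared ones 36.1 (17.7 and 56.7).

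The sites called in the knock-in only were largely weak. Their median percentile was 21.8 (quartiles 9.84 and 40.6), compared with 60.4 (36.8 and 81.1) for knock-in peaks found in the knockout. Of the 532, 138 were in the lowest-scoring 10% of the list, 82 in the higher-scoring 50% and 0 in the highest-scoring 10%. The strongest was at chr3:86010550-86010927, at rank 222 of 2063 and 471 kb from the nearest knockout peak. It was followed by chr17:27179669-27179944 (rank 272) and chr10:70702419-70702613 (rank 281). Those at chr14:56504856-56505044 and chr17:14963846-14964049 tied at rank 296. The peak at chr5:106091004-106091260 stood at 319 and chr8:47937023-47937259 at 369. The last 3 tied at rank 401, at chr5:146962054-146962297, chr6:126388502-126388669 and chr15:32496348-32496542. Of these 10 peaks, 9 were narrower than the median knock-in peak of 315 bp, and their nearest knockout peaks were 61.9 to 1476 kb away.

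The narrowness of strong unshared sites went beyond the 10. Within the higher-scoring 50% of the knock-in list, the 82 unshared peaks had a median width of 258 bp (quartiles 214 and 311), against 310 bp (257 and 392) for the 949 shared ones. Divided into 3 width classes, the narrow peaks among them (144 to 270 bp) had a knockout counterpart at a rate of 85.8% (81.7 to 89.3) and the wide ones (353 to 1081 bp) at 97.1% (94.7 to 98.6). The higher-scoring 50% of the knockout list had the same order, with 46.0% of the narrow (42.2 to 49.8) and 68.3% of the wide peaks (64.7 to 71.8) found in the knock-in. In the lower-scoring 50% of the knock-in list the order did not hold: narrow peaks were found in 65.1% of cases (59.8 to 70.1), the middle class in 42.4% (37.1 to 47.8) and wide peaks in 61.9% (56.5 to 67.1). Width and score were not independent. In the knockout list the median width rose from 279 bp in score class 6 to 351.5 bp in class 10, while the share found rose from 31.5% to 93.2%. Below class 6 it did not rise with score: class 1 had 302 bp and class 4 had 261 bp, with 10.2% and 16.8% found. In the knock-in list class 10 was the widest (352 bp) and had no unshared peak. Its class 1, with 33.7% found, was nearly as wide (343.5 bp), and class 7, with 84.9% found, was the narrowest (266 bp). The width classes were not matched on score, and the part of score, read depth and fragment length in these widths was not tested.

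The sites called in the knockout only reached higher places in their list. Of the 2564, 842 (32.8%) were in the higher-scoring 50% and 28 in the highest-scoring 10%, compared with 82 (15.4%) and 0 for the sites called in the knock-in only. The lists differ in length, so these percentages are given side by side only. The strongest was at chr4:16086715-16087049, at rank 91 of 4094 and 70.8 kb from the nearest knock-in peak. The peak at chr11:33908266-33908529 was at rank 159, with a knock-in peak 22.8 kb away, and chr10:94190850-94191245 at rank 187. They were followed by chr16:90301243-90301601 (rank 240), chr11:53905195-53905493 (rank 243) and chr1:130559832-130560105 (rank 255). The others were chr13:34759207-34759441 (rank 269), chr4:107036668-107037004 (rank 271), chr8:13594876-13595157 (rank 272) and chr2:102478198-102478627 (rank 281). Their widths, 235 to 430 bp, lay on both sides of the knockout median of 297 bp, with 4 of the 10 below it. An absent knock-in peak does not show an unbound site, since the lists do not tell it from a site under the calling limit.

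Knock-in sites without a knockout counterpart also lay in sparser surroundings. The nearest knockout peak that did not overlap was a median of 155 kb away for them, and 65.2 kb away for shared knock-in peaks. A knockout peak lay within 10 kb of 49 of the 532 (9.21%, exact 95% interval 6.89 to 12.0) and of 224 of the 1531 shared ones (14.6%, 12.9 to 16.5). Within 100 kb the shares were 38.0% (33.8 to 42.2) and 59.4% (56.9 to 61.8). For knockout peaks the classes were closer together: a knock-in peak lay within 10 kb of 6.98% of the unshared (6.02 to 8.04) and 7.25% of the shared ones (6.01 to 8.67), and the medians were 193 kb and 163 kb. Distances within the knock-in list had the same order, with 3.95% of unshared knock-in peaks (2.46 to 5.97) and 7.38% of shared ones (6.12 to 8.81) within 10 kb of another knock-in peak. Within the knockout list the shares were closer, 12.7% of unshared (11.4 to 14.1) and 14.6% of shared peaks (12.9 to 16.5). Neighbouring peaks are not independent, so these intervals are too narrow to that extent. Unshared knock-in peaks were also weaker than shared ones (median percentile 21.8 against 60.4). Distances were not compared within score classes, so the part of peak strength was not tested.

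**Figure D4:**
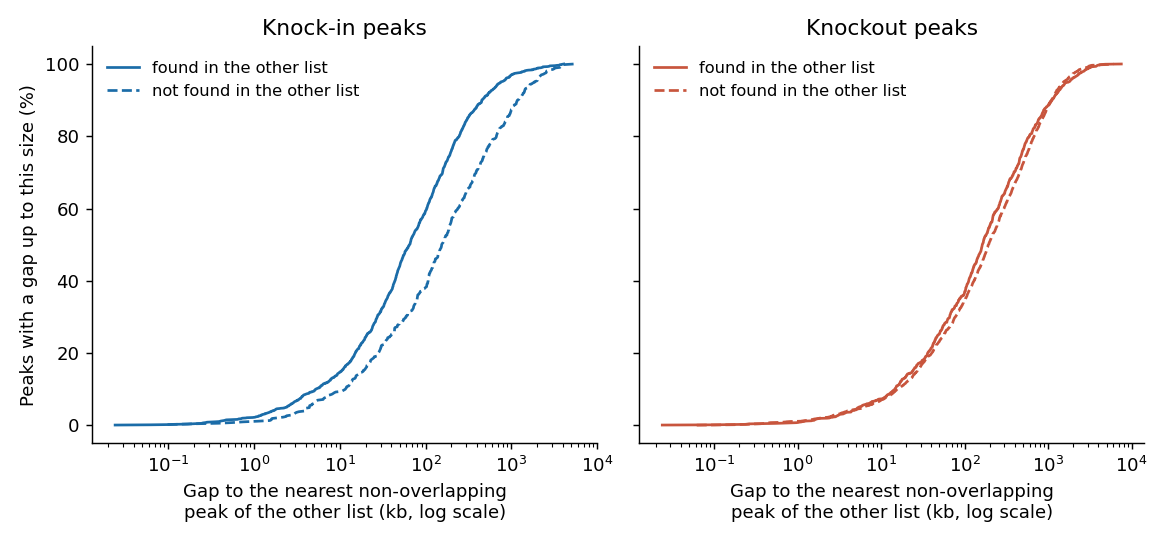
Each curve gives the percentage of peaks (vertical axis) whose gap to the nearest non-overlapping peak of the other genotype is at most the size on the horizontal axis (kb, log scale), for knock-in peaks (left) and knockout peaks (right). The dashed curve of unshared knock-in peaks lies to the right of the solid one, with medians of 155 kb and 65.2 kb, while the knockout curves nearly coincide.

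The overlap was spread over all 19 chromosomes. For knock-in peaks, the share with a knockout counterpart ran from 66.1% on chromosome 3 (56.7 to 74.7) to 82.1% on chromosome 15 (71.7 to 89.8), and the interval of each of the 19 chromosomes included the share of the whole list, 74.2%. For knockout peaks, the share with a knock-in counterpart ran from 29.5% on chromosome 6 (24.1 to 35.2) to 43.1% on chromosome 7 (36.7 to 49.6), and the interval of chromosome 6 alone left out the whole-list share of 37.4%. Among 19 intervals of 95%, single ones can miss by counting error alone. Knockout peaks outnumbered knock-in peaks on every chromosome, by 1.65 times on chromosome 16 at the least and 2.47 times on chromosome 15 at the most; the ratio on chromosome 6 was 2.43.

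**Figure D5:**
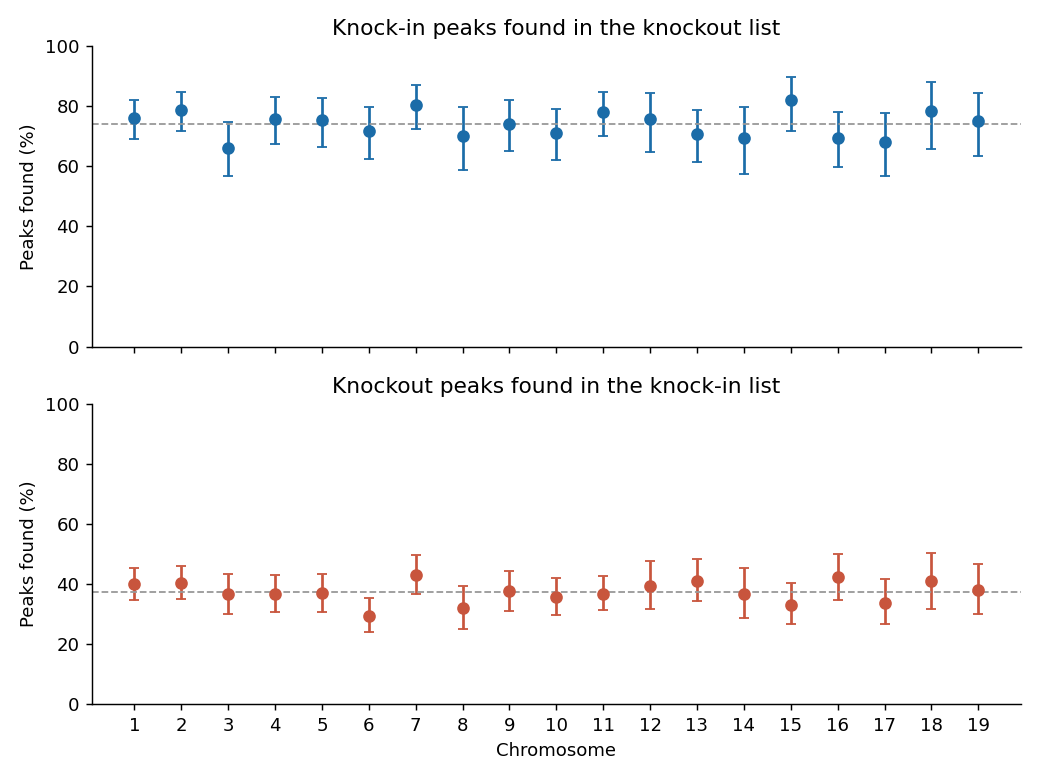
Points give the percentage of peaks with a counterpart, for the knock-in list (top) and the knockout list (bottom), on each of chromosomes 1 to 19, with exact 95% binomial intervals; dashed lines mark the shares of the whole lists, 74.2% and 37.4%. The chromosome 6 interval in the lower panel lies below its line.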

How the data were processed

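The authors deposited 1 peak list per PU.1 immunoprecipitation, giving for every peak its position and a score whose definition is not stated, used here only as a rank within a list. Per the submitters' processing notes, the tools were MACS, Bowtie and Trim Galore and the build was mm9; versions and settings, and any use of the input DNA, are not given in those notes. Positions are counted from 1. The knockout list reaches 197028196 on chromosome 1, past the last gene of GRCm38 there (195291439), so the GRCm38 gene table was not used to place peaks, and the planned gene annotation was not run.

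An overlap of 1 bp or more counted as shared. Percentiles are of scores within a list on chromosomes 1 to 19. Shares have exact (Clopper-Pearson) 95% binomial intervals. With 1 library per genotype no test was made. Regions named were the 10 leading shared regions, the 10 leading peaks called in each genotype only, the 5 pairs with the largest percentile difference each way, and up to 5 regions joining several peaks. The members and these rules were chosen with earlier results of these data known. The overlap functions were tested on thinned and shifted copies of the knock-in list and on made-up intervals. The computation ran in Python 3.11.15 with scipy 1.17.1, pandas 2.3.3 and numpy 2.4.6, and figures were drawn with matplotlib 3.10.9.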

Additional observations from a re-analysis of the deposited data

How the results depend on the processing

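Of 33 alternative values, 24 stayed within the interval of the reported share, within 0.05 of the reported rho or within 1.5 times the reported count or distance. Requiring 50% reciprocal overlap gave counterparts to 71.0% of the knock-in list and 35.8% of the knockout list. With the higher-scoring 50% of each list the shares were 80.7% and 40.7%, and the regions in both numbered 833 because fewer peaks entered. Holding the knockout list to the length of the knock-in list gave 58.7% and 58.6%. Restricting only the list that is asked about to its higher-scoring 50% gave 92.0% for the knock-in and 58.9% for the knockout. No paired analysis was possible because there is a single library on each side, which also leaves no replicate to omit. Depth is unknown, so a missing peak may be a site below the calling limit.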

Other observations

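Across the 255 windows of 10 Mb that held a region, windows with more shared PU.1 regions also held more knockout-only regions (Spearman's rho 0.73) and more knock-in-only regions (rho 0.34). The windows differ in how many sites can be bound and called, and the knock-in-only counts are small. They had a median of 2 and at most 7 per window, and knockout-only regions a median of 10. One window, chosen after its values were seen, held the most knockout-only regions: chromosome 6 from 120 to 130 Mb (mm9) had 40, and the next window 26. It also held 14 shared and 6 knock-in-only regions, among the latter the peak at chr6:126388502-126388669 named above. Of its 54 knockout peaks 25.9% were found in the knock-in (exact 95% interval 15.0 to 39.7), against 30.3% on the rest of chromosome 6 (24.3 to 36.8) and 37.9% on the other chromosomes (36.4 to 39.5).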
